A study of Mus musculus with 8 samples.

Results

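Chemokines are small secreted proteins that attract leukocytes, and mast cells are among the cells that release them. In this series 10 genes of this system, the CC chemokines Ccl1, Ccl2, Ccl3, Ccl4, Ccl6, Ccl7 and Ccl9 and the receptors Ccr1, Ccr2 and Cxcr4, were followed in resting bone marrow derived mast cells (BMMCs). They were taken by name, as 10 of the 56748 gene IDs counted in all 8 libraries, and each was found once. Poly-A RNA was sequenced from 4 libraries labelled Mettl3-RNP (genotype label Mettl3 KO) and 4 labelled Pulsed. Both groups were grown in IL-3 from the bone marrow of young C57BL/6 mice, and no other allele or agent is named. The Mettl3-RNP cells had received ribonucleoproteins of the Cas9 nuclease with guide RNAs against Mettl3, the enzyme that places N6-methyladenosine (m6A) on mRNA. The Pulsed cells went through the transfection without any RNP, so they do not control for Cas9 cutting, and the edited cells were a bulk population in which untargeted cells remained. The series text gives 4 mice as the source of the 8 samples.

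CC chemokines bind G protein-coupled receptors on the surface of other leukocytes, and often several ligands share a receptor. CCL3, CCL4, CCL6, CCL7 and CCL9 are inflammatory ligands, of which CCL3, CCL6, CCL7 and CCL9 can bind CCR1. CCL2 and CCL7 bind CCR2, the main receptor for the exit of monocytes from bone marrow. Many chemokine mRNAs are made within minutes of a stimulus and are short-lived, in part through AU-rich elements in the untranslated region after the stop codon. The m6A mark lies mostly in the sequence DRACH, of which GGACT (in DNA letters) is a common form.

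The genes of the ligands lie close together on chromosome 11 (GRCm39). Ccl2 (81926397 to 81928279, plus strand), Ccl7 (81936532 to 81938351, plus strand) and Ccl1 (82067483 to 82196516, minus strand) form one stretch. Ccl9 (83463745 to 83473161, minus strand), Ccl6 (83478708 to 83483913, minus strand), Ccl3 (83538670 to 83540191, minus strand) and Ccl4 (83553383 to 83555509, plus strand) form the other. Ccr1 (123762161 to 123768734, minus strand) and Ccr2 (123901982 to 123913594, plus strand) lie on chromosome 9, and Cxcr4 (128515936 to 128520044, minus strand) on chromosome 1. Ccl2 and Ccl7, Ccl3 and Ccl4, and Ccl6 and Ccl9 are close paralogues, and how the counting treated reads that match more than 1 gene is not stated. Ccl3 also overlaps the antisense RNA Gm53692 by 276 bp, which had at most 56 counts in a library.

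The m6A motif was looked for in the canonical transcript of each gene, on the mRNA strand, because the libraries differ in the methyltransferase. The Ccr1 transcript held GGACT 3 times, each time in the coding sequence. The sites are at chr9:123764458-123764482, chr9:123764412-123764436 and chr9:123763896-123763920 (GRCm39, minus strand), and are shown because Ccr1 was the transcript that passed the test. GGACT is in capitals.
Ccr1 site 1: ttgactatggGGACTccactccatg
Ccr1 site 2: ctttggggctGGACTcctgcccccc
Ccr1 site 3: aaaccttcttGGACTaattttgcct
Such a match is common: 95.7% of the 1408 canonical transcripts within 10% of the length of Ccr1 held GGACT at least once, and 62.1% held it as many times or more. Ccl2, Ccl3 and Ccl7 each held it once, after the stop codon, at chr11:81928003-81928027 (plus strand), chr11:83538927-83538951 (minus strand) and chr11:81938212-81938236 (plus strand).
Ccl2: agtgtgactcGGACTgtgatgcctt
Ccl3: ccacatcgagGGACTcttcacttga
Ccl7: tattatgaagGGACTttgcaagaat
Of transcripts of similar length, 68.5%, 63.2% and 67.2% held the motif. Ccl4 held none, as against 51.4% of transcripts of its length with at least 1. Of the others, Ccr2 held 5 copies and Ccl9 4, more than Ccr1, in longer transcripts (5728 and 3011 bases, against 2838). As many or more were held by 68% and 42.4% of transcripts of similar length. Ccl6 held 2, Ccl1 held 1 and Cxcr4 held 1, numbers reached by 57.5%, 56.9% and 86.5%.

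The core of AU-rich elements, ATTTA in DNA letters, was searched after the stop codon on the mRNA strand, with overlapping matches counted. Ccl3 held 5 copies, a number reached by 1.47% of the 407 transcripts with a similar length after the stop codon. Ccl4 held 2 copies, Ccl7 held 2 and Ccl2 held 1, and 13.4%, 18.1% and 39.6% of similar transcripts held as many. The windows below are from Ccl3 at chr11:83538906-83538930 and chr11:83538831-83538855 (minus strand), Ccl4 at chr11:83555370-83555394 and Ccl2 at chr11:81928034-81928058 (both plus strand), with 1 ATTTA of each window in capitals (the next copy of Ccl3 follows directly, in lower case, in its first window), and are given because these mRNAs differed most between replicates or were the most abundant.
Ccl3 window 1: ttgaaattttATTTAatttaatcct
Ccl3 window 2: atttgtgactATTTAttctgaaaga
Ccl4: tatttctattATTTAtgttttagtt
Ccl2: tattaaacttATTTAacttattgat
The other transcripts held 8 copies (Ccr2, a number reached by 21.3% of similar transcripts), 5 (Ccl9, 42.6%), 4 (Ccl6, 12.7%), 1 (Ccr1, 80.2%), 1 (Cxcr4, 57.5%) and none (Ccl1). Neither search shows whether a site is methylated or bound.

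The targeted transcript was examined before the members. Mettl3 was lower in 4 of 4 pairs, at 8.89 ± 3.05 CPM (SD, n = 4) in Mettl3-RNP and 22.0 ± 7.29 CPM (SD, n = 4) in Pulsed libraries (log2 fold change −1.30, SE 0.109, edgeR adjusted p = 0.00543). The groups overlapped, as Pulsed 3 was at 11.2 CPM, below Mettl3-RNP 1 at 12.3 CPM. CPM are counts per 1000000 of the TMM-scaled library. A gene on the opposite strand, Tox4, overlaps Mettl3 by 2308 bp, and strand use in the counting is not stated. Libraries held 32643260 to 45324826 counts. Same-numbered libraries of the groups deviated together, so the members were compared with the replicate number as a block. Of 12 mast cell markers Kit and Fcer1a were abundant, at 4055 ± 903 and 2602 ± 164 CPM in Pulsed libraries. Tpsab1, on the same list, was near the floor, with at most 9 counts in a library, and was not tested.

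Of the 10 genes, which all passed the filter on low counts, 1 passed an adjusted p of 0.05 with a fold change of at least 1.5, and it was lower (Ccr1). Among all 14942 tested genes, 2.06% passed in either direction, 1.24% higher and 0.816% lower. The fitted log2 fold changes of the 10 genes were positive for 5 and negative for 5, with a median of −0.16, against −0.0013 over all tested genes. The 7 ligands had a median of 0.13 and the 3 receptors of −0.56. At an unadjusted p under 0.05 there were 2 members, Ccr1 and Ccl2, where 22.5% of tested genes reached it.

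**Figure D1:**
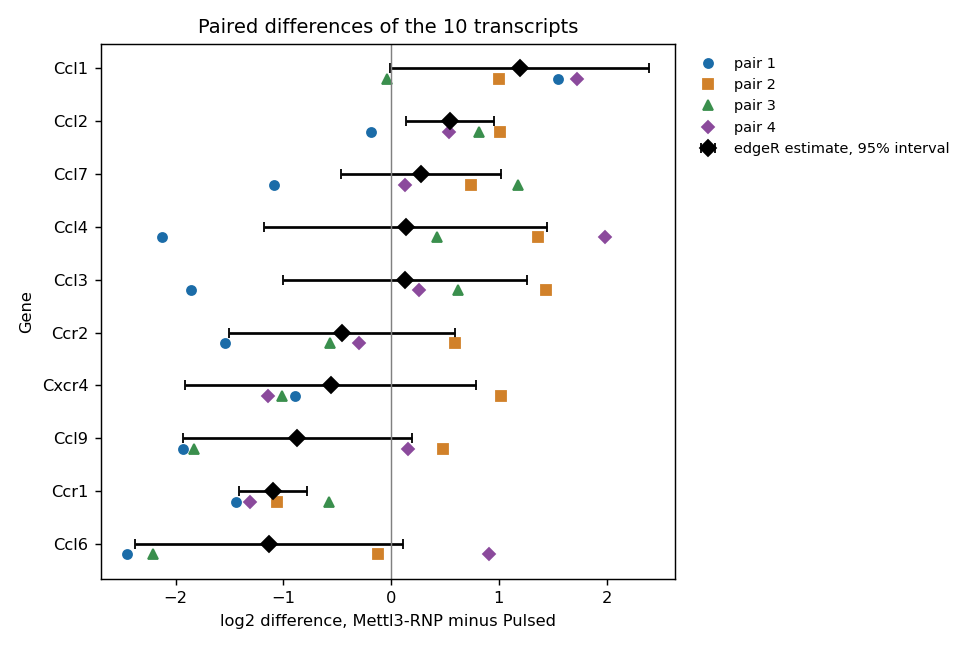
Log2 differences of Mettl3-RNP minus Pulsed for the 10 transcripts (x axis, log2 scale; genes on the y axis). Diamonds with bars are the edgeR estimate with its 95% interval, and small symbols are the 4 pairs; only for Ccr1, with an interval of −1.41 to −0.78, do all 4 pairs lie on the lower side, and only the intervals of Ccr1 and Ccl2 do not include 0.

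Ccr1, the receptor for CCL3 and several other inflammatory chemokines, fell in Mettl3-RNP cells. Its level was 59.6, 100.4, 49.2 and 73.0 CPM in Pulsed libraries 1 to 4 and 22.0, 48.2, 33.1 and 29.4 CPM in Mettl3-RNP libraries 1 to 4. It was lower in 4 of 4 pairs, which held for 16% of tested genes, and every edited library was below every Pulsed library, by a narrow margin between Mettl3-RNP 2 and Pulsed 3. Of all tested genes, 3.23% had groups that did not overlap, in either direction, and Ccr1 was the only one of the 10 members. In TPM, which scales each library by the length-corrected total instead of TMM, the groups did overlap, with 68.9 TPM in Mettl3-RNP 2 and 59.4 TPM in Pulsed 3, while Ccr1 was still lower in 4 of 4 pairs. The mean was 70.6 ± 22.1 CPM (SD, n = 4) in Pulsed and 33.2 ± 11.1 CPM (SD, n = 4) in Mettl3-RNP, a log2 fold change of −1.10 (SE 0.136, 95% interval −1.41 to −0.78, edgeR adjusted p = 0.0139), or 2.14-fold lower. Within pairs the edited cells held 36.9%, 48.1%, 67.2% and 40.2% of the Pulsed level in pairs 1 to 4, so the smallest difference was that of pair 3. An exact sign-flip permutation test of the 4 pairs gave a two-sided p of 0.125, the smallest that 4 pairs allow. A fit without the block put the log2 fold change at −1.09 with an adjusted p of 0.744, and without replicate 2 it was −1.12 with an adjusted p of 0.0648. In bulk RNA, fewer cells that express a gene and less RNA per cell cannot be told apart.

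**Figure D2:**
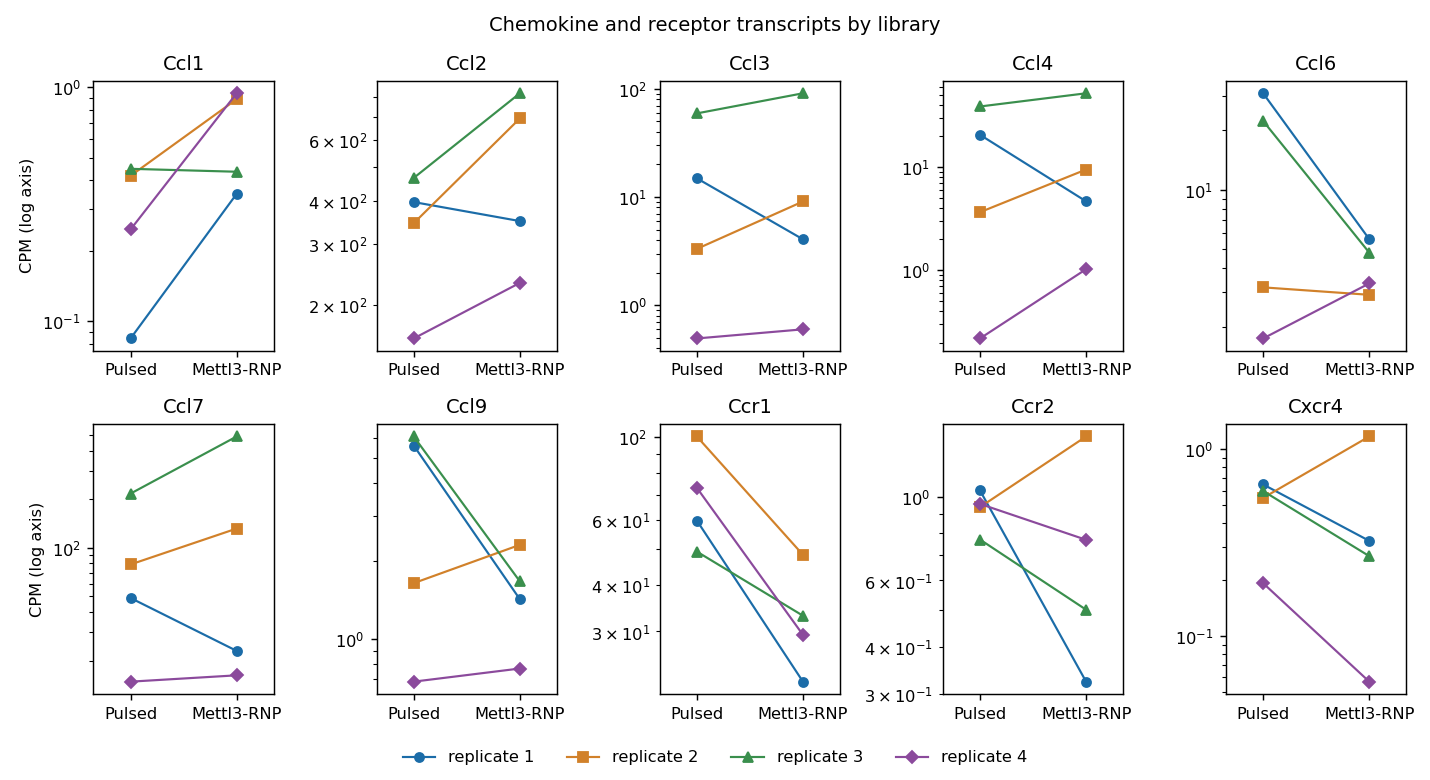
Level of each transcript in the 8 libraries (y axis, CPM on a log axis, a separate scale for each gene; x axis, group), with a line joining the same-numbered libraries. All 4 lines of Ccr1 fall, from 49.2 to 100.4 CPM to 22.0 to 48.2 CPM, and those of Ccl3 and Ccl4 keep wide gaps between replicate numbers.

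The other receptors were low, at 12 to 62 counts per library for Ccr2 and 2 to 50 for Cxcr4. Ccr2, the receptor of CCL2, was at 1.04, 0.940, 0.771 and 0.959 CPM in Pulsed libraries and 0.323, 1.45, 0.502 and 0.770 CPM in Mettl3-RNP libraries. The edited libraries lay on both sides of the Pulsed ones, and the log2 fold change of −0.46 (SE 0.453, 95% interval −1.51 to 0.59) had an adjusted p of 0.611 in edgeR. Cxcr4, the receptor of CXCL12, which holds hematopoietic cells in bone marrow, was at 0.647, 0.548, 0.597 and 0.192 CPM in Pulsed and 0.323, 1.17, 0.268 and 0.0570 CPM in edited libraries. Library 4 was lowest in both groups. Its log2 fold change was −0.56 (SE 0.583, 95% interval −1.91 to 0.79, edgeR adjusted p = 0.634), and in pair 2 it was higher in the edited library. Without replicate 2 the log2 fold change was −1.21 (adjusted p 0.409). The intervals of both genes include a fall as large as that of Ccr1, so a fall of that size could not be told from none.

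Ccl2, a ligand that recruits monocytes, was the most abundant member. It was at 396.6, 344.3, 465.9 and 159.4 CPM in Pulsed libraries 1 to 4 and at 349.3, 693.3, 820.4 and 231.1 CPM in Mettl3-RNP libraries 1 to 4. In 3 of 4 pairs the edited library was the higher one, in pair 1 it was the lower, and the groups overlapped. The means were 341.6 ± 131.2 CPM (SD, n = 4) in Pulsed and 523.5 ± 278.6 CPM (SD, n = 4) in Mettl3-RNP, with a log2 fold change of 0.55 (SE 0.175, 95% interval 0.14 to 0.95, 1.46-fold). This did not pass after adjustment over all tested genes (edgeR adjusted p = 0.118), and the exact sign-flip permutation test gave p = 0.25. With a replicate left out the log2 fold change ran from 0.38 without replicate 2 (adjusted p 0.367) to 0.75 without replicate 1 (adjusted p 0.0230).

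Ccl7, a ligand for both CCR1 and CCR2 encoded next to Ccl2, varied more than Ccl2 between replicate numbers. It was at 48.9, 78.9, 216.9 and 14.8 CPM in Pulsed libraries and 23.0, 131.7, 489.9 and 16.2 CPM in Mettl3-RNP libraries. Library 3 was highest and library 4 lowest in both groups, and the edited library was higher in 3 of 4 pairs. The log2 fold change was 0.28 (SE 0.321, 95% interval −0.46 to 1.02, edgeR adjusted p = 0.671). Without replicate 3 its sign turned, to −0.057.

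Ccl3 and Ccl4, the macrophage inflammatory proteins 1 alpha and 1 beta, had the widest spread. Ccl3 was at 14.9, 3.32, 59.2 and 0.493 CPM in Pulsed libraries 1 to 4 and 4.06, 9.09, 90.8 and 0.599 CPM in Mettl3-RNP libraries 1 to 4. Ccl4 was at 20.5, 3.66, 38.6 and 0.219 CPM in Pulsed and 4.66, 9.46, 51.7 and 1.03 CPM in Mettl3-RNP. Both were highest in library 3 and lowest in library 4 of each group, a range over the 8 libraries of 184-fold for Ccl3 and 236-fold for Ccl4. Against this spread the fitted group differences were small and imprecise, with a log2 fold change of 0.13 for Ccl3 (SE 0.490, 95% interval −1.0 to 1.26, edgeR adjusted p = 0.907) and 0.13 for Ccl4 (SE 0.568, 95% interval −1.18 to 1.45, edgeR adjusted p = 0.919). In both genes pair 1 was lower in the edited library (−1.86 and −2.13) and the other pairs higher. Without replicate 2 the log2 fold change turned to −0.40 for Ccl3 and −0.37 for Ccl4, and without replicate 1 it was 0.88 and 0.99 (adjusted p 0.0643 and 0.0806).

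Ccl6 and Ccl9, paralogues that both can bind CCR1, had lower means in edited cells without passing the test. Ccl6 was at 30.8, 3.19, 22.3 and 1.75 CPM in Pulsed libraries and 5.60, 2.92, 4.78 and 3.33 CPM in Mettl3-RNP libraries. Pulsed 1 and Pulsed 3 stood high, and the other 6 libraries lay together at a lower level. The log2 fold change was −1.13 (SE 0.538, 95% interval −2.38 to 0.11, edgeR adjusted p = 0.262), with pairs 1, 2 and 3 lower and pair 4 higher. Ccl9 was at 5.60, 1.64, 6.07 and 0.685 CPM in Pulsed and 1.43, 2.31, 1.67 and 0.770 CPM in edited libraries, again with Pulsed 1 and Pulsed 3 highest. Its log2 fold change was −0.87 (SE 0.460, 95% interval −1.93 to 0.19, edgeR adjusted p = 0.313), lower in pairs 1 and 3 and higher in the other pairs. The call for Ccl6 depended on the genes and libraries used: it had an adjusted p of 1.34e-07 when every gene with at least 1 count was kept and of 0.0140 without replicate 4 (log2 fold change −1.68). Without replicates 1 or 3, which hold the high Pulsed libraries, it was −0.59 (adjusted p 0.557) and −0.70 (adjusted p 0.524).

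Ccl1, the ligand of CCR8, was the member with the highest fitted fold change and among the lowest in level. It was at 0.0844, 0.418, 0.448 and 0.246 CPM in Pulsed libraries and 0.350, 0.888, 0.435 and 0.941 CPM in Mettl3-RNP libraries, from 3 to 38 counts. The edited library was the higher one in 3 of 4 pairs, and pair 3 differed by −0.037 on the log2 scale. The log2 fold change of 1.19 (SE 0.519, 95% interval −0.0076 to 2.39) had an edgeR adjusted p of 0.225. After removal of the replicate number as a batch, limma-trend gave 1.06 with an adjusted p of 0.0204, but 30.5% of all tested genes reached an adjusted p of 0.05 in that setting.

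Levels of different genes were compared as TPM, which divides by exon length. Ccl2 stood at 1145 ± 408 TPM (SD, n = 4) in Pulsed libraries, followed by Ccl7 at 405 ± 365, Ccr1 at 96.5 ± 31.1, Ccl3 at 90.2 ± 119 and Ccl4 at 84.8 ± 90.1 TPM. Ccl6 (30.9 ± 31.9 TPM) and Ccl9 (4.28 ± 3.32 TPM) came next, and Cxcr4 (1.05 ± 0.445), Ccr2 (0.535 ± 0.108) and Ccl1 (0.452 ± 0.231) were near 1 TPM or below. The place of Ccl1 depends on the length used, since its exons in all annotated transcripts cover 2475 bp and its canonical transcript has 620 bases. The Pulsed ranges of all neighbours in this order overlapped. Within libraries the order was firmer for some: Ccl2 was above Ccl7, Ccl6 above Ccl9 and Ccl9 above Cxcr4 in 8 of 8 libraries, whereas Ccl3 was above Ccl4 in 3 of 8 and Ccr2 above Ccl1 in 2 of 8. The ratio of Ccl2 to Ccl7 in TPM ran from 1.19 in Mettl3-RNP 3 to 10.8 in Mettl3-RNP 1, and that of Ccl3 to Ccl4 from 0.516 to 1.99.

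**Figure D3:**
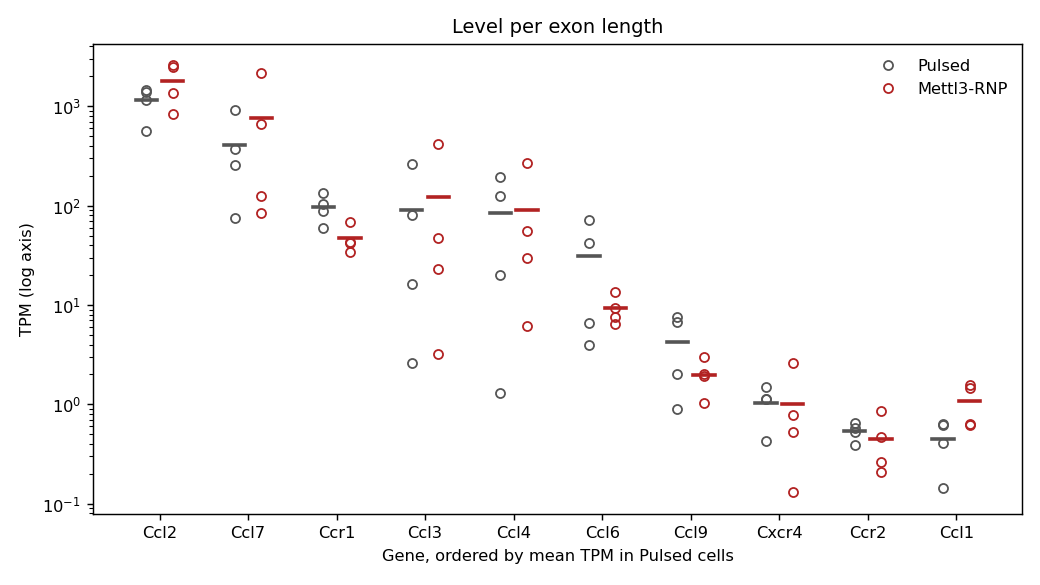
Levels of the 10 transcripts per exon length (TPM on a log axis), in the order of the Pulsed means, with an open circle for each of the 4 Pulsed and 4 Mettl3-RNP libraries and a bar at the group mean. Ccl2 leads with a Pulsed mean of 1145 TPM, and the points of Ccl3 and Ccl4 spread over more than those of Ccr1.

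Replicate number rather than group held most of the variance of every ligand but Ccl1 (44.6% between replicate numbers, 39.0% between groups). Of the variance of log2 CPM, 94.2% lay between replicate numbers for Ccl3, 93.4% for Ccl7, 88.9% for Ccl4, 76.1% for Ccl2, 60.3% for Ccl6 and 58.8% for Ccl9, against a median of 78.3% over all tested genes, so that Ccl2, Ccl6 and Ccl9 lay below it. Between groups lay 0.0498% for Ccl3, 0.485% for Ccl7, 0.714% for Ccl4 and 14.1% for Ccl2, against a median of 5.68%. Ccr1 had the reverse division, with 28.0% between numbers and 65.9% between groups. Ccl2, Ccl3, Ccl4 and Ccl7 were highest in library 3 of both groups, which held for 26.9% of tested genes. These genes, Ccl9 and Cxcr4 were lowest in library 4 of both groups, which held for 12.5% of tested genes.

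Immediate early genes, such as Egr1 and Fos, are switched on within minutes of a stimulus, and their level followed the same libraries. The summed level of 17 of them was 4003, 4442, 22868 and 620 CPM in Pulsed libraries 1 to 4 and 3387, 6844, 26601 and 791 CPM in Mettl3-RNP libraries 1 to 4, highest in library 3 and lowest in library 4 of each group. None of the 17 passed an adjusted p of 0.05 between groups in edgeR (3 at an unadjusted p under 0.05, median log2 fold change 0.22). None of 12 NF-kappaB feedback genes passed either (7 at an unadjusted p under 0.05, which 22.5% of all tested genes reached, median 0.12), with sums of 549 to 1025 CPM in Pulsed and 576 to 1453 CPM in edited libraries. The part of this variation in the ligand levels was not tested.

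**Figure D4:**
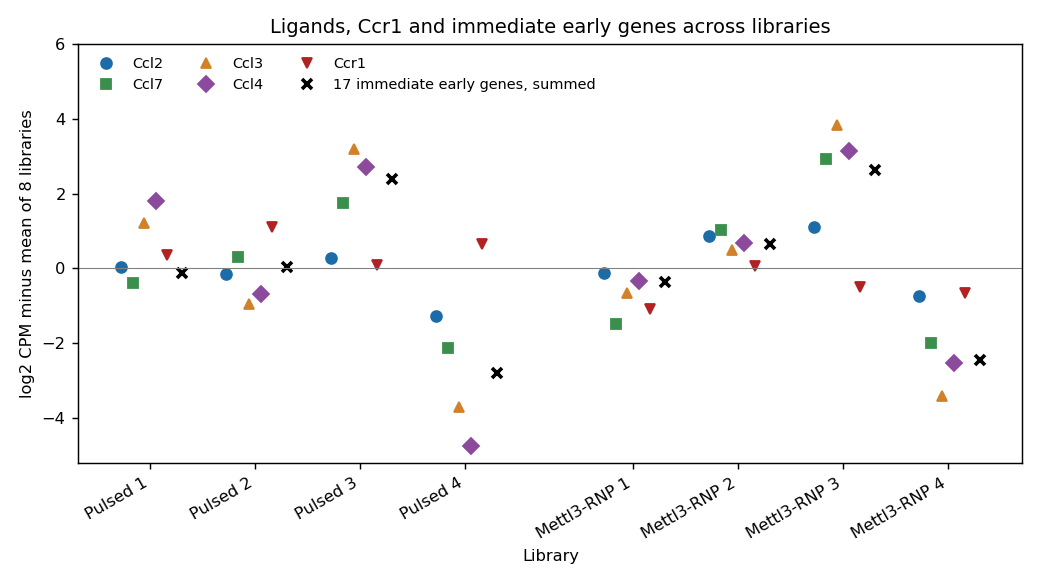
Log2 CPM of 5 members and of 17 summed immediate early genes (y axis), each minus its mean over the 8 libraries (x axis). Ccl3, Ccl4, Ccl7 and the immediate early genes are high in library 3 and low in library 4 of both groups, and Ccr1 is lower in every edited library than in the Pulsed library of the same number.

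The genes whose profile over the 8 libraries was nearest to the 4 most abundant ligands were found by the root mean square difference of centred log2 CPM among the 11984 other tested genes that averaged 1 CPM or more. Nearest to Ccl3 was Ccl4 (0.587), followed by Btg2 (0.750) and Zfp36 (0.788), and nearest to Ccl4 were Ccl3 (0.587), Zfp36 (0.669) and Junb (0.827). Zfp36 encodes a protein that binds AU-rich elements, and Btg2, Zfp36 and Junb are early response genes. Nearest to Ccl7 were Gm17024 (0.271), Nfkbiz (0.377) and Marcksl1 (0.446), and to Ccl2 were Slc35e4 (0.195) and Notch1 (0.264). The distance grows with the spread of a gene, so it is not comparable between ligands.

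The rest of the chemokine system was mostly at or near 0. Of 52 other ligands and receptors, 14 had no count in any library and 14 were tested. None of those tested passed an adjusted p of 0.05 in edgeR, and their median log2 fold change was 0.053. There were 2 at an unadjusted p under 0.05, which 22.5% of all tested genes reached, and the lowest adjusted p was 0.210. The lowest was that of Ccl5, named here after its values were seen, which had at most 15 counts in a library and was higher in 4 of 4 pairs (log2 fold change 1.86, 95% interval 0.065 to 3.65). A mean of 1 CPM or more was reached by 7. Cx3cr1, the receptor of fractalkine, was the highest, at 383.5, 291.5, 61.1 and 357.1 CPM in Pulsed and 403.2, 201.6, 135.7 and 285.5 CPM in edited libraries (log2 fold change 0.08, edgeR adjusted p = 0.888). It was lowest in library 3 of both groups, where Ccl2, Ccl3, Ccl4 and Ccl7 were highest. Ackr1, a scavenging receptor, was at 33.2 ± 9.11 CPM (SD, n = 4) in Pulsed and 32.4 ± 11.9 CPM in edited libraries, and Ccl25 at 9.07 ± 2.40 and 9.61 ± 4.13 CPM. Ccrl2 was at 12.6, 12.5, 16.9 and 7.09 CPM in Pulsed and 11.3, 10.4, 56.1 and 8.07 CPM in edited libraries, with Mettl3-RNP 3 above the rest (log2 fold change 0.38, edgeR adjusted p = 0.526).

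Ccr3, the eotaxin receptor, was lower in 4 of 4 pairs, at 2.21 ± 0.971 CPM (SD, n = 4) in Pulsed and 1.46 ± 0.579 CPM in edited libraries, without passing after adjustment (log2 fold change −0.59, 95% interval −1.16 to −0.011, edgeR adjusted p = 0.216). Ccl24 (1.92 ± 0.832 and 1.58 ± 0.637 CPM) and Ccr1l1, a paralogue of Ccr1 (1.72 ± 0.450 and 1.27 ± 0.789 CPM, log2 fold change −0.56, edgeR adjusted p = 0.425), did not pass either. All 4 pairs of Ccl24 were lower in the edited library (log2 fold change −0.28, 95% interval −0.81 to 0.26, edgeR adjusted p = 0.538).

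**Figure D5:**
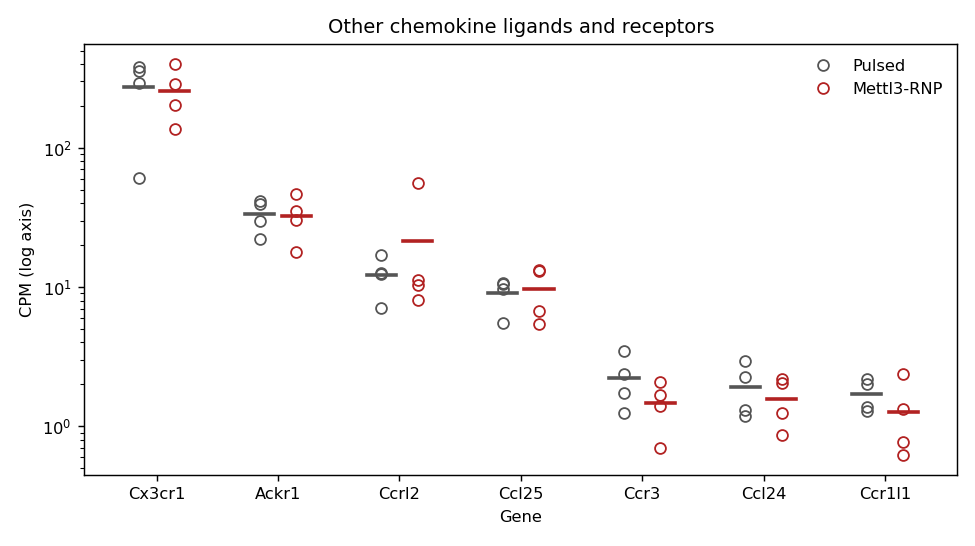
Level (CPM on a log axis) of the 7 other chemokine ligands and receptors with a mean of 1 CPM or more, with an open circle for each of the 4 Pulsed and 4 Mettl3-RNP libraries and a bar at the group mean. The circles of the groups overlap for all 7 genes, and Ccrl2 in Mettl3-RNP 3 stands at 56.1 CPM above the other 7 libraries.

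Of 28 genes that carry the signal of chemokine receptors, 27 were tested and 2 passed an adjusted p of 0.05, both higher, where 3.74% of all tested genes passed in either direction and 2.35% were higher. Of the 27, 7 had an unadjusted p under 0.05, which 22.5% of all tested genes reached, and the median log2 fold change was −0.0030. Pik3cg, the G protein-regulated catalytic subunit of PI3K, was at 234 ± 39.7 CPM (SD, n = 4) in Pulsed and 296 ± 36.4 CPM in edited libraries (log2 fold change 0.35, SE 0.0756, edgeR adjusted p = 0.0489). Pik3r5, a regulatory partner of that subunit, was the one that also passed the limit on fold change (1.08, SE 0.222, edgeR adjusted p = 0.0423), at a low level of 1.65 ± 1.55 CPM in Pulsed and 3.39 ± 2.68 CPM in edited libraries. Both were higher in 4 of 4 pairs, as were 15.7% of tested genes.

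Markers of other cells were looked at because monocytes, macrophages and eosinophils carry Ccr1. The 14 macrophage and monocyte markers summed to 11.1 to 17.4 CPM in Pulsed and 9.07 to 37.3 CPM in Mettl3-RNP libraries, mostly from Cd68 and Lyz2. Cd68 was at 5.01, 3.16, 6.56 and 3.26 CPM in Pulsed and 3.71, 23.8, 11.1 and 28.3 CPM in edited libraries, the edited library being the higher one in 3 of 4 pairs (log2 fold change 1.63, 95% interval 0.31 to 2.94, edgeR adjusted p = 0.142), and Lyz2 had a log2 fold change of 0.024 (edgeR adjusted p = 0.977). Of the 5 tested, 1 was past the threshold and lower (Adgre1, log2 fold change −1.13, edgeR adjusted p = 0.0435, from 2.53 ± 0.444 to 1.18 ± 0.370 CPM). Among all tested genes 2.06% passed it in either direction and 0.816% were lower. Csf1r and C1qa, which define macrophages, were near 0 (0.139 and 0.0070 CPM on average in Pulsed, 0.172 and 0.0067 CPM in edited libraries). Of 4 eosinophil markers Epx and Prg3 had no count in any library, and Siglecf fell from 4.30 ± 1.04 to 1.57 ± 0.605 CPM (log2 fold change −1.50, edgeR adjusted p = 0.0199). The part of such cells in the lower Ccr1 was not tested. The 12 mast cell markers summed to 51597 to 69445 CPM in Pulsed and 47508 to 63424 CPM in edited libraries, and of 11 tested none passed both limits. Cpa3, a granule protease, was the only one at an adjusted p of 0.05, with a change under 1.5-fold (log2 fold change −0.37, edgeR adjusted p = 0.0328). The 3 genes listed as basophil markers summed to 499.98 to 627 CPM in Pulsed and 509.9 to 823 CPM in edited libraries, with none passing. Nearly all of this was Cd200r3, so the sum is not a measure of basophils. Mcpt8 averaged 2.56 CPM in Pulsed and 1.88 CPM in edited libraries, and Prss34 1.13 and 0.702 CPM. Cd200r3 was higher in the edited library of all 4 pairs (log2 fold change 0.25, edgeR adjusted p = 0.151), and Mcpt8 (−0.42, edgeR adjusted p = 0.267) and Prss34 (−0.68, edgeR adjusted p = 0.299), both below Cd200r3 in every library, were lower in all 4 pairs. Neutrophil markers summed to at most 0.334 CPM. Dendritic cell, lymphocyte and erythroid markers each summed to at most 4.73 CPM, and none of the 5 tested passed.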

How the data were processed

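Poly-A RNA of 8 BMMC samples was sequenced. The authors aligned reads with HISAT2 2.2.1 to GRCm39 and counted them per gene with featureCounts 2.0.1, after FastQC 0.11.9, and the deposited values are whole-number counts without normalization. Strand and multimapping settings are not stated. The study describes a batch correction after counting, of which these counts show no sign. GENCODE M39 named 98.7% of the IDs.

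Genes were kept with filterByExpr and compared by the quasi-likelihood test of edgeR 4.0.16 in R 4.3.3, with TMM scaling, the replicate number as block and Benjamini-Hochberg adjustment over 14942 genes. Genes passed at an adjusted p of 0.05 or less with a change of 1.5-fold or more. CPM used TMM library sizes, and pair differences a prior count of 2. Intervals and standard errors of fold changes come from the edgeR fit with the block. Its dispersion for a gene is moderated with those of all tested genes, so they do not rest on the samples of that gene alone. The test was checked on simulated data.

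Same-numbered libraries correlated in their deviations from group means over 11985 genes (0.825, 0.489, 0.879 and 0.765, against at most 0.183 for different numbers). Each deviation is from the mean of the same 4 libraries, which lowers the values for different numbers, so that contrast is partly built in. The pairing is inferred from the correlations of same-numbered libraries and from the 4 mice of the series text. Libraries of a group differed beyond sampling noise (lowest chi-square 59.8 per degree of freedom). The study calls the 4 replicates biologically independent, and the labels do not say how they were separated.

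Alternatives were no block, limma 3.58.1 (voom, and trend after removeBatchEffect), DESeq2 1.42.0, other scalings and filters, and each replicate left out. Named genes were the members, other chemokine genes at 1 CPM or more, genes of the signalling, immediate early and NF-kappaB lists at an adjusted p of 0.05, and the 3 nearest genes of the 4 members with the highest mean TPM over all 8 libraries, which were ligands. For Ccl2, 1 of these is not reported here. Lists covered other CC chemokines, CXC, CX3C and XC chemokines, other receptors, signalling, immediate early and NF-kappaB genes and cell type markers. Egr1, Fos and marker genes were named as examples. Members and lists were chosen with earlier results of these data known.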

Additional observations from a re-analysis of the deposited data

Results flagged for a closer look

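Of 40 groups of 4 libraries (20 genes in each group), 5 held a library set apart from the other 3 by Dixon's test on CPM. Chance would give about 1 in 20, or 2, if the genes were independent and the values normal, which they are not, so the counts are a description. All 5 were in replicate 3. Ccl3 was at 90.8 CPM in Mettl3-RNP 3 and at 0.599 to 9.09 CPM in the other edited libraries. Ccl4 was at 51.7 CPM in Mettl3-RNP 3, against 1.03 to 9.46 CPM. Ccrl2 was at 56.1 CPM in the same library, against 8.07 to 11.3 CPM. In Pulsed 3, Mettl3 was at 11.2 CPM, against 24.5 to 26.5 CPM in the other Pulsed libraries, and Pik3cg at 174 CPM, against 252 to 257 CPM. On log2 CPM, a scale chosen after seeing the data, 5 groups also held such a library, but only 2 of these were the same (Mettl3 and Pik3cg). The others were Cxcr4 in Pulsed 4 (0.192 CPM, against 0.548 to 0.647), Ccl25 in Pulsed 3 (5.52 CPM, against 9.67 to 10.7) and Cx3cr1 in Pulsed 3 (61.1 CPM, against 292 to 384).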

How the results depend on the processing

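With the block, 1 member passed the threshold (Ccr1). No member passed without the replicate block, 2 passed with removeBatchEffect and limma-trend (Ccr1 and Ccl1) and 2 when every gene with at least 1 count was kept (Ccr1 and Ccl6), where 6.51% and 1.72% of all tested genes passed. Leaving out each replicate gave 0 to 2. There were 0 without replicate 2, where 0.174% of all tested genes passed. There were 2 without replicate 1 (Ccr1 and Ccl2) or 4 (Ccr1 and Ccl6), where 2.03% and 2.14% of all tested genes passed. At an adjusted p of 0.05 alone, 1 member passed (3.74% of all tested genes), and 0 without the block. In DESeq2 2 passed (Ccr1 and Ccl2, where 9.7% of all tested genes did). There were 3 with removeBatchEffect (Ccr1, Ccl1 and Ccl2, 30.5% of all tested genes) and 3 with at least 1 count (Ccr1, Ccl2 and Ccl6, 2.95%). With a replicate left out 0 to 2 passed, where 0.174% to 2.57% of all tested genes did. Without the block no gene of the whole table passed (579 at an unadjusted p under 0.05), so it leaves Ccr1 at −1.09 with an adjusted p of 0.744. The other chemokine genes gave 1 call with removeBatchEffect and none otherwise. Ccl3 turned to −0.40 without replicate 2 and −0.13 without replicate 3, Ccl4 to −0.37 without replicate 2 and −0.062 without replicate 4, and Ccl7 to −0.057 without replicate 3. Their highest values with a replicate left out, 0.88, 0.99 and 0.67, came without replicate 1. The cause was not tested. Across all settings the log2 fold change of Ccr1 lay between −1.27 and −1.01. Ccl1, Ccr2 and Cxcr4 had few counts, which limits what can be seen of them, and Ccl1 and Cxcr4 got no adjusted p in DESeq2.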
